A study of Mus musculus with 6 samples.

Results

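The genes of the NRF2 response and of the glutathione, thioredoxin and peroxide systems were compared between the mouse mammary tumour cell lines J110 and SSM3. The group was chosen with earlier results of these data known, but its members were taken by gene name alone, from the protein-coding genes of the deposited count table. It holds every glutathione S-transferase gene with a Gst symbol in the alpha, kappa, mu, omega, pi, theta and zeta classes, every glutathione peroxidase and peroxiredoxin gene, the superoxide dismutase genes, and 16 single genes (Nfe2l2, Keap1, Nqo1, Hmox1, Gclc, Gclm, Gsr, Gss, Txn1, Txnrd1, Srxn1, Cat, G6pdx, Pgd, Tkt and Taldo1). These rules gave 56 genes of the 52636 in the table, on 18 chromosomes. The study looked for syngeneic mouse lines that model estrogen receptor positive breast cancer, and sequenced RNA from 3 biological replicates of each line. SSM3 came from a mammary tumour of a 129SvEv mouse, and J110 from a mouse with an AIB1 complementary DNA driven by the MMTV long terminal repeat. Neither line was treated. The lines were also grown in different media. The SSM3 medium held β-mercaptoethanol, a reducing agent, together with holo-transferrin, added L-glutamine and more serum, under more CO2, while insulin and hydrocortisone were in both media. Line and medium therefore cannot be told apart in any comparison below.

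NRF2, encoded by Nfe2l2, is a transcription factor that KEAP1 holds in the cytoplasm and marks for degradation until oxidants or electrophiles modify the cysteines of KEAP1. NRF2 then enters the nucleus, pairs with a small MAF protein and binds antioxidant response elements near genes for glutathione synthesis, glutathione conjugation, the thioredoxin system and NADPH supply. Superoxide dismutases turn superoxide into hydrogen peroxide, which catalase, the glutathione peroxidases and the peroxiredoxins remove, and NADPH pays for the reduced glutathione and thioredoxin that these peroxidases use. Much of the control of NRF2 acts on its protein, which RNA counts do not measure.

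Total counts ran from 5209740 to 5416305 in the J110 libraries and from 4200785 to 4792941 in the SSM3 libraries. A ribosomal RNA locus held 15.1% to 17.2% of the counts in J110 and 0.779% to 1.27% in SSM3. Its part in the differences below was tested only by leaving it out, which left 31 of the 56 genes called in place of 32. Gstm4 then fell under the count filter and was not tested, and the calls of the 38 genes still tested did not change. Libraries were made with a 3′ tag kit, which samples the end of polyadenylated transcripts, so counts were not divided by gene length. Levels are given in CPM, the counts of a library brought to a common total after scaling by the TMM method of edgeR. Each difference is a log2 fold change of SSM3 against J110, so a positive value is higher in SSM3, from edgeR's quasi-likelihood test with a p-value adjusted by the Benjamini-Hochberg method over the 12284 genes with enough counts. A gene was called when that adjusted p was below 0.05. Whether the replicates were separate cultures is not given in the sources used here, and the p-values measure only the spread between these libraries. Genes whose libraries in a line all held 3 counts or fewer were taken to be at the floor there, which corresponds to between 0.578 and 0.668 CPM, and no fold is given where both lines were at it. Intervals cover counting error only.

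The libraries were compared with their labels by marker genes. The summed level of 9 luminal mammary markers was 2751 to 2832 CPM in J110 and 13646 to 14623 CPM in SSM3, and the epithelial marker Epcam had at most 7 counts in any J110 library. Of the 9, 8 were higher in SSM3, and the luminal keratin gene Krt18 went the other way, with 7401, 7330 and 6777 counts in J110 against 4223, 4510 and 5085 in SSM3. A list of 5 basal or mesenchymal markers, nearly all of it Vim, summed to 4960 to 5455 CPM in J110 and 13.7 to 22.9 CPM in SSM3. The basal genes of that list did not follow Vim, since Krt14 had 5 to 9 counts in J110 and 14 to 35 in SSM3, and Trp63 had none and 6 to 9. Ncoa3, the gene for AIB1, had 102 to 110 counts in J110 and 181 to 199 in SSM3. It was thus not higher in the line with the transgene, and whether the 3′ tags would show the transgene is not given in the sources used here. J110 and SSM3 stand below for the libraries so labelled, and each direction rests on the labels. The summed level of 3 endothelial, 5 fibroblast and 6 erythroid markers was at most 2.23 CPM in any library. Leukocyte markers summed to 29.2 to 35.0 CPM in J110 and to less in SSM3, from 14.7 CPM, carried by Cd68 and Csf1r, while Ptprc, the pan-leukocyte gene, had at most 2 counts. In bulk RNA, fewer cells that express a gene and less RNA of it per cell cannot be told apart.

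Stray counts, on genes otherwise seen in the opposite line, fell on the most such genes in J110 replicate 3 and SSM3 replicate 2. Of the genes with no count in the other libraries of the line and at least 50 CPM in the other line, J110 replicate 3 had counts on 29 of 45 (0.200% of their level there) and SSM3 replicate 2 on 46 of 51 (0.480%), while SSM3 replicate 1 had counts on 6 of 11 (0.397%). J110 replicate 3 and SSM3 replicate 2 were left out together as an alternative chosen after the data were seen, and the counts of genes called among the 56 were then unchanged.

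Promoter sequences are shown because the same short letters, those of the antioxidant response element that NRF2 binds, lay around the start of genes that were higher in SSM3 and of genes that were lower. The letters TGACNNNGC, or GCNNNGTCA when read from the other strand, were searched in the RefSeq promoter windows of GRCm38.p6, which run from 250 bases before to 50 bases after each start site. A window was found for 48 of the 56 genes, and 11 of these genes (22.9%) held the letters, against 3781 of 27025 genes with a window (14.0%) and 4071 of 32851 windows (12.4%). They were present in 5 of 14 genes called higher in SSM3, in 3 of 13 called lower, and in 3 of 21 not called or not tested. The sites of the 8 called genes are printed on the strand of the gene, 5′ to 3′, with the matched letters in capitals.
Nfe2l2 (chr2:75704875-75704913, reverse strand): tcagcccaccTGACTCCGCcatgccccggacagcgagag
Gclm (chr3:122245403-122245451, forward strand): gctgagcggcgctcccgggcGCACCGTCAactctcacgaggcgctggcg
Txnrd1 (chr10:82859094-82859142, forward strand): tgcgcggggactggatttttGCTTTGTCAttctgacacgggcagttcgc
G6pdx (chrX:74428909-74428957, reverse strand): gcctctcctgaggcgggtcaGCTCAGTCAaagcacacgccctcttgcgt
Prdx1 (chr4:116685446-116685494, forward strand): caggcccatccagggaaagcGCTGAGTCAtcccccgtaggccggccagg
Srxn1 (chr2:152105532-152105573, forward strand): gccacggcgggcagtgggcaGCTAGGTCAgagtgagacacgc
Sod1 (chr16:90220686-90220734, forward strand): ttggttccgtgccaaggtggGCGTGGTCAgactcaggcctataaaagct
Gstm5 (chr3:107895792-107895840, forward strand): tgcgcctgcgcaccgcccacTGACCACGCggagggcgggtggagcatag
The first 3 of these genes were lower in SSM3 and the other 5 higher. Positions are counted from the start site of the window that holds the match, which is 1 of 3 windows in Txnrd1. The match began -240 bases from it in Nfe2l2, -134 in Gclm, -92 in Txnrd1, -57 in G6pdx, -133 in Prdx1, -56 in Sod1 and -42 in Gstm5, where a negative number lies before the start, and at 29 in Srxn1. Of the 11 genes, the match overlapped the AP-1 letters TGACTCA or TGAGTCA in Prdx1 alone. The other 3 genes with a match were Pgd and Gstm7, each in 1 of 2 windows, and Gsta3. A match of these letters is a description of the sequence and not a binding site, and windows without it say nothing of NRF2.

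The antioxidant genes differed in both directions, and the share of them called lay near that of all genes. Of the 56 genes, 39 had enough counts to be tested, 17 did not, with at most 9 counts in any library, and 6 of these had no count at all. Among the 39 tested, 32 were called (82.1%), beside 77.9% of all genes tested. The calls were 15 higher in SSM3 (38.5%, beside 38.6% of all genes) and 17 lower (43.6%, beside 39.2%). Differences beyond 2-fold, tested with glmTreat against that fold, were called for 19 of the 39 (48.7%, beside 34.8% of all genes), 8 higher and 11 lower. The libraries of the lines did not overlap for 33 of the 39 (84.6%, beside 79.6%). The median log2 fold change of the 39 was -0.061, close to the -0.014 of all genes tested, and their median size without sign was 1.18, against 0.84. The 7 genes tested and not called were Keap1, Gss, Pgd, Taldo1, Prdx3, Prdx4 and Gstp1.

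**Figure D1:**
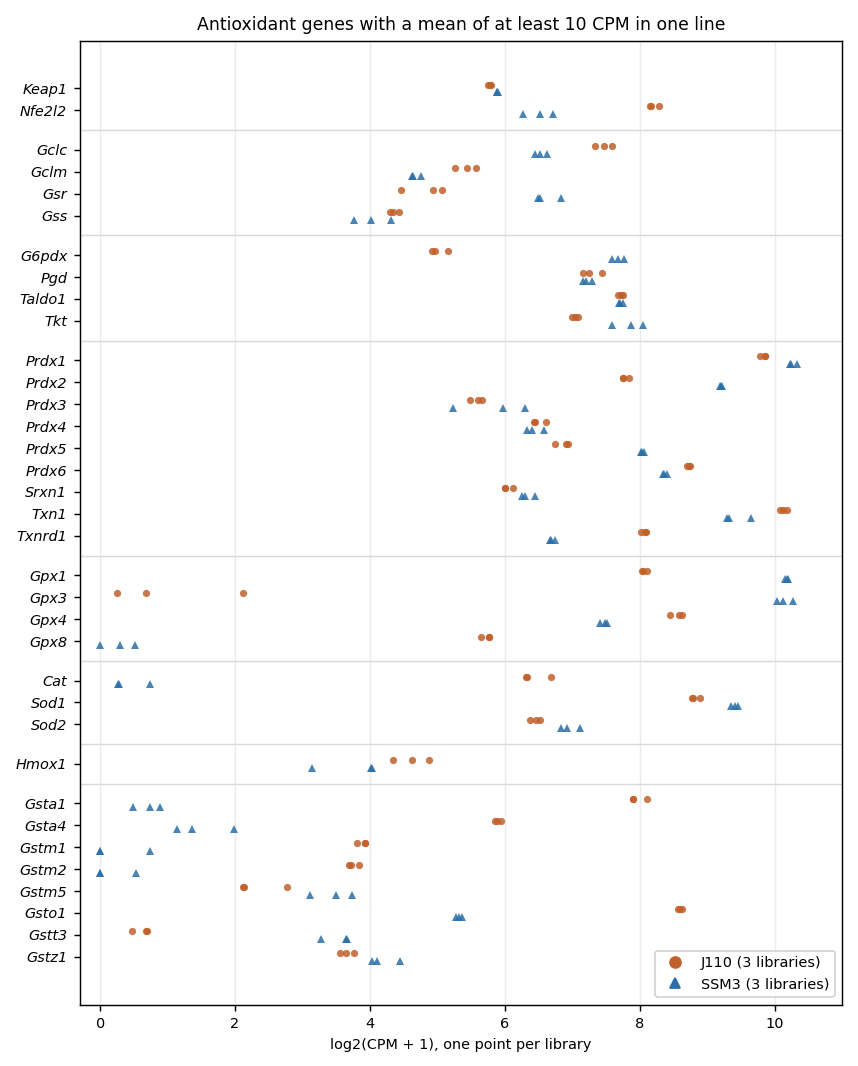
Level of the 35 antioxidant genes with a mean of at least 10 CPM in one line, as log2(CPM + 1) on the horizontal axis, with 1 point per library (circles J110, triangles SSM3, 3 libraries each) and grey lines between roles. Gpx3 sits at the left in J110 and at the right in SSM3, while Cat, Gpx8, Gsta1, Gsta4, Gstm1 and Gstm2 show the opposite order and Pgd, Taldo1 and Prdx4 overlap.

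The gene of NRF2 was lower in SSM3 and that of its inhibitor was not called. Nfe2l2 (ENSMUSG00000015839, chr2:75675513-75704641 of mm10, reverse strand), which encodes NRF2 itself, had 1487, 1563 and 1357 counts in J110 against 468, 428 and 380 in SSM3. All J110 libraries lay above the SSM3 libraries, at 293 ± 14.1 CPM in J110 against 90.2 ± 14.3 in SSM3 (SD, n = 3 each), and the difference was a log2 fold change of -1.70 (edgeR adjusted p = 1.28e-10, standard error 0.099). Keap1 (ENSMUSG00000003308, chr9:21229730-21239361 of mm10, reverse strand), the adaptor that presents NRF2 for degradation, had 274, 274 and 258 counts in J110 against 264, 273 and 292 in SSM3. Its scaled levels were 53.6 ± 0.712 CPM in J110 against 58.3 ± 0.437 in SSM3, close together but without overlap, and the log2 fold change of 0.12 (edgeR adjusted p = 0.215, standard error 0.087) did not pass the threshold. With library size only, without TMM, the Keap1 value was 0.30 (edgeR adjusted p = 0.00605). Keap1 shares exon sequence with Gm16754 on the opposite strand, a gene with fewer counts.

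Genes that make and recycle glutathione differed in opposite directions. Gclc (ENSMUSG00000032350, chr9:77754535-77794485 of mm10, forward strand), the catalytic subunit of glutamate-cysteine ligase and the rate-limiting step of glutathione synthesis, had 832, 885 and 911 counts in J110 against 438, 406 and 458 in SSM3. Its level was 175 ± 14.9 CPM in J110 against 91.6 ± 5.67 in SSM3, a log2 fold change of -0.93 (edgeR adjusted p = 5.19e-08, standard error 0.088). Gclm (ENSMUSG00000028124, chr3:122245557-122270732 of mm10, forward strand), the modifier subunit of the same enzyme, had 219, 188 and 222 counts in J110 against 106, 113 and 131 in SSM3, a log2 fold change of -0.77 (edgeR adjusted p = 2.62e-05, standard error 0.12). Both subunits were thus lower in every SSM3 library than in any J110 library. Gss (ENSMUSG00000027610, chr2:155563181-155592810 of mm10, reverse strand), glutathione synthetase, had 106, 97 and 89 counts in J110 against 68, 59 and 95 in SSM3. SSM3 replicate 3 lay with the J110 libraries, the log2 fold change of -0.32 (edgeR adjusted p = 0.089, standard error 0.16) did not pass the threshold, and without that library it was -0.49 (edgeR adjusted p = 0.0146). Without SSM3 replicate 2 the Gss value was -0.18 (edgeR adjusted p = 0.359), and with counts thinned to the smallest library -0.43 (edgeR adjusted p = 0.0432). Gsr (ENSMUSG00000031584, chr8:33652523-33698163 of mm10, forward strand), the NADPH-dependent reductase that returns oxidised glutathione to its reduced form, had 153, 106 and 156 counts in J110 against 506, 420 and 454 in SSM3. Gsr was higher in all SSM3 libraries, at 27.7 ± 6.01 CPM in J110 against 97.4 ± 13.2 in SSM3, a log2 fold change of 1.82 (edgeR adjusted p = 3.46e-09, standard error 0.14). The 4 genes together gave a summed level of 264 ± 20.3 CPM in J110 and 229 ± 18.7 CPM in SSM3. Gclm shares exons with Gm17494 on the opposite strand, whose counts, 101, 97 and 67 in J110 and 20, 23 and 21 in SSM3, went the same way, and Gss with Acss2, with 75, 68 and 50 counts in J110 and 17, 24 and 22 in SSM3, so part of their reads cannot be assigned with certainty.

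Of the 4 NADPH supply genes of the pentose phosphate pathway, 2 were higher in SSM3 (beside 38.6% of all genes) and 2 were not called. G6pdx (ENSMUSG00000031400, chrX:74409483-74429194 of mm10, reverse strand), glucose-6-phosphate dehydrogenase, had 180, 147 and 145 counts in J110 against 857, 954 and 1087 in SSM3. Its level was 31.3 ± 2.97 CPM in J110 against 203 ± 12.7 in SSM3 and the libraries were far apart, a log2 fold change of 2.70 (edgeR adjusted p = 2.27e-13, standard error 0.097). Pgd (ENSMUSG00000028961, chr4:149149991-149166771 of mm10, reverse strand), the next NADPH-producing step, had 779, 714 and 825 counts in J110 against 701, 667 and 737 in SSM3. The Pgd libraries of the lines overlapped, with a log2 fold change of -0.061 (edgeR adjusted p = 0.532, standard error 0.087). Tkt (ENSMUSG00000021957, chr14:30548359-30574720 of mm10, forward strand), transketolase of the non-oxidative branch, had 674, 682 and 607 counts in J110 against 1045, 901 and 1328 in SSM3, a log2 fold change of 0.81 (edgeR adjusted p = 1.41e-06, standard error 0.10). Its SSM3 libraries were the higher ones, with a wider spread, at 130.5 ± 4.14 CPM in J110 against 229 ± 36.6 in SSM3. Taldo1 (ENSMUSG00000025503, chr7:141392199-141402968 of mm10, forward strand), transaldolase of the same branch, had 1108, 1023 and 1002 counts in J110 against 920, 976 and 1074 in SSM3 and a log2 fold change of 0.0020 (edgeR adjusted p = 0.98, standard error 0.070). Taldo1 levels overlapped between the lines, and with library size only its value was 0.18 (edgeR adjusted p = 0.0316). Among these 4 genes, 1 of each branch was called and 1 was not, a split that depends on which genes the rule took. Whether the genes of a branch differed from each other was not tested. G6pdx shares exons with Ikbkg on the opposite strand, whose counts, 300, 287 and 262 in J110 and 133, 170 and 173 in SSM3, went the other way.

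Of the 3 genes of the thioredoxin cycle, 2 were lower in SSM3 (beside 39.2% of all genes) and 1 was higher (beside 38.6%). Txn1 (ENSMUSG00000028367, chr4:57943373-57956411 of mm10, reverse strand), cytosolic thioredoxin, had 5774, 5422 and 5549 counts in J110 against 3578, 3012 and 3127 in SSM3. Every J110 library was above every SSM3 library, at 1114 ± 42.8 CPM in J110 against 686 ± 96.1 in SSM3, a log2 fold change of -0.70 (edgeR adjusted p = 1.41e-06, standard error 0.086). Txnrd1 (ENSMUSG00000020250, chr10:82833951-82897712 of mm10, forward strand), the selenoprotein that reduces thioredoxin with NADPH, had 1334, 1358 and 1294 counts in J110 against 454, 497 and 510 in SSM3. Txnrd1 was likewise lower in SSM3, at 265 ± 7.04 CPM in J110 against 103 ± 2.46 in SSM3, a log2 fold change of -1.37 (edgeR adjusted p = 4.39e-11, standard error 0.074). Srxn1 (ENSMUSG00000032802, chr2:152105516-152111376 of mm10, forward strand), sulfiredoxin, which repairs overoxidised peroxiredoxins, had 326, 346 and 302 counts in J110 against 337, 365 and 431 in SSM3. In CPM it was a little higher in all SSM3 libraries, at 64.8 ± 3.18 CPM in J110 against 79.4 ± 5.61 in SSM3, a log2 fold change of 0.30 (edgeR adjusted p = 0.00672, standard error 0.090).

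Among the 7 peroxiredoxin genes, 3 were higher in SSM3 (beside 38.6% of all genes), 1 was lower (beside 39.2%), 2 were not called and Prdx6b was not tested. Prdx1 (ENSMUSG00000028691, chr4:116685544-116700822 of mm10, forward strand), a cytosolic peroxiredoxin, had 4812, 4419 and 4434 counts in J110 against 5367, 5656 and 6457 in SSM3, a log2 fold change of 0.43 (edgeR adjusted p = 1.53e-05, standard error 0.066). Prdx2 (ENSMUSG00000005161, chr8:84969587-84974834 of mm10, forward strand), its cytosolic relative, had 1115, 1083 and 1088 counts in J110 against 2657, 2769 and 2930 in SSM3, a log2 fold change of 1.43 (edgeR adjusted p = 6.73e-12, standard error 0.066). Prdx5 (ENSMUSG00000024953, chr19:6906697-6910106 of mm10, reverse strand), found in mitochondria and peroxisomes, had 548, 602 and 580 counts in J110 against 1189, 1208 and 1314 in SSM3, a log2 fold change of 1.18 (edgeR adjusted p = 5.99e-10, standard error 0.078). These 3 had no overlap between the lines, at 909 ± 30.3 CPM in J110 against 1227 ± 50.2 in SSM3 for Prdx1, 219 ± 7.20 CPM in J110 against 588 ± 4.34 in SSM3 for Prdx2 and 115 ± 8.37 CPM in J110 against 261 ± 4.15 in SSM3 for Prdx5. Prdx6 (ENSMUSG00000026701, chr1:161240112-161251219 of mm10, reverse strand), which uses glutathione and also has phospholipase activity, had 2193, 2094 and 2053 counts in J110 against 1471, 1523 and 1689 in SSM3, a log2 fold change of -0.36 (edgeR adjusted p = 9.24e-05, standard error 0.065). Prdx6 was the only one of the 7 called lower in SSM3, and its near copy Prdx6b had 1 count in all 6 libraries together. Prdx4 (ENSMUSG00000025289, chrX:155323918-155340754 of mm10, reverse strand), the peroxiredoxin of the endoplasmic reticulum, had 448, 432 and 462 counts in J110 against 356, 445 and 418 in SSM3, and its libraries overlapped, with a log2 fold change of -0.061 (edgeR adjusted p = 0.556, standard error 0.093). Prdx3 (ENSMUSG00000024997, chr19:60864051-60874556 of mm10, reverse strand), the mitochondrial peroxiredoxin, had 246, 250 and 209 counts in J110 against 350, 290 and 184 in SSM3. The SSM3 libraries of Prdx3 were spread on both sides of J110, at 46.8 ± 2.96 CPM in J110 against 58.7 ± 20.8 in SSM3, and the log2 fold change of 0.32 (edgeR adjusted p = 0.123, standard error 0.18) did not pass the threshold. Without SSM3 replicate 3, the lowest library, the Prdx3 value was 0.57 (edgeR adjusted p = 6.5e-05), and without SSM3 replicate 1, the highest, it was 0.067 (edgeR adjusted p = 0.719). It also passed the threshold with library size only (0.50, edgeR adjusted p = 0.0263) and with a filter of at least 1 count (0.34, edgeR adjusted p = 0.00529). Summed over the 7 genes, the level was 1801 ± 42.8 CPM in J110 and 2549 ± 31.9 CPM in SSM3. Prdx5 shares exons with Trmt112 on the opposite strand, whose counts, 518, 487 and 507 in J110 and 1084, 1140 and 1382 in SSM3, went the same way. Prdx2 shares exons on the opposite strand with Rnaseh2a, whose counts, 212, 225 and 192 in J110 and 389, 384 and 417 in SSM3, also went the same way, and with Junb, at 1134, 1187 and 1055 in J110 and 1415, 1125 and 1244 in SSM3.

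**Figure D2:**
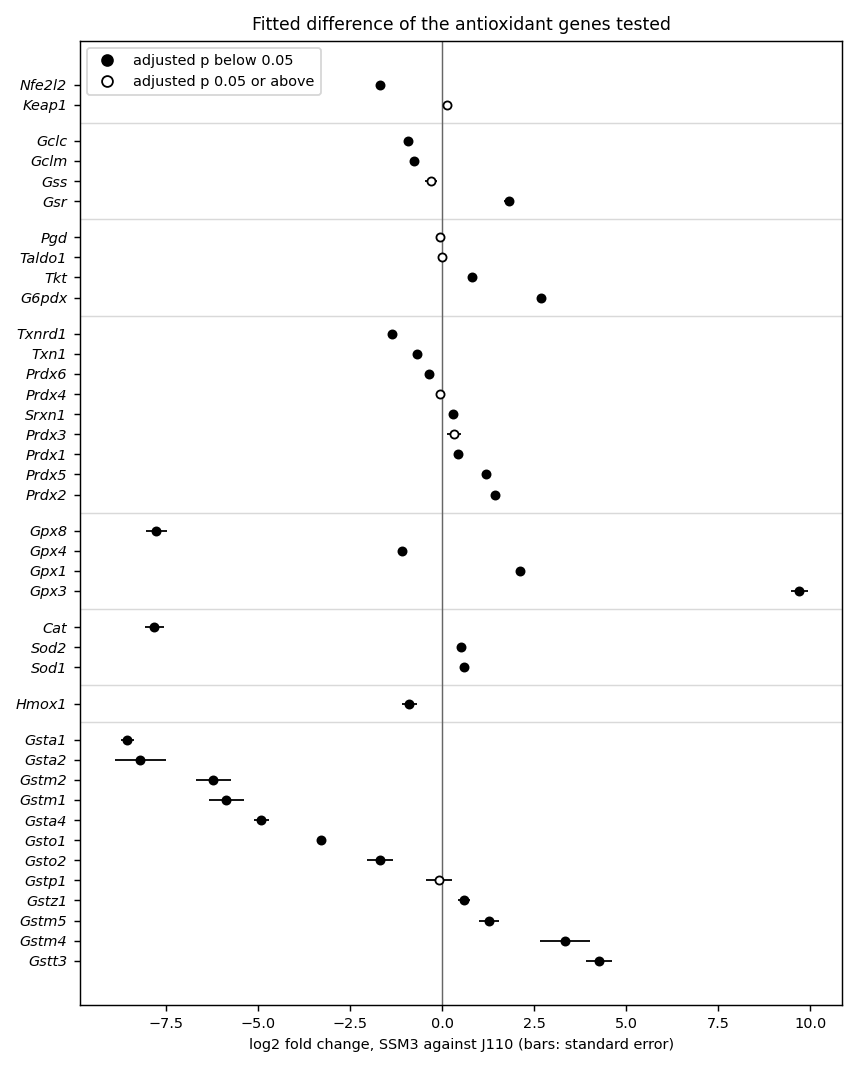
Fitted log2 fold change of SSM3 against J110 for the 39 antioxidant genes tested, with the standard error as a bar, ordered by size within each role (grey lines between roles). Filled points were called (32 genes) and open points were not (7 genes), and points lie on both sides of 0 in most roles. The point of Gsta2, which had no SSM3 count, depends on the prior count of the fit.

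The glutathione peroxidases held large differences in both directions. Gpx3 (ENSMUSG00000018339, chr11:54902453-54910377 of mm10, forward strand), a secreted selenoprotein best known from plasma, had 1, 3 and 16 counts in J110 against 4686, 5244 and 6192 in SSM3. The SSM3 libraries were all far above J110, at 1.37 ± 1.71 CPM in J110 against 1129.7 ± 95.3 in SSM3, a log2 fold change of 9.70 (edgeR adjusted p = 1.55e-15, standard error 0.23) and a ratio of the pooled levels of 852 (95% counting interval 551 to 1395). J110 replicate 3 carried most of the J110 counts, with levels of 0.017%, 0.053% and 0.296% of the SSM3 mean in replicates 1, 2 and 3, and without it the log2 fold change was 11.40. That library also had counts on 29 of 45 other genes of SSM3, and the part of these low counts in the J110 level of Gpx3 was not tested. Gpx1 (ENSMUSG00000063856, chr9:108338903-108340343 of mm10, forward strand), the cytosolic selenoprotein that reduces hydrogen peroxide, had 1363, 1320 and 1319 counts in J110 against 5175, 5341 and 5869 in SSM3. Its libraries were tight within each line and apart between them, at 266 ± 7.73 CPM in J110 against 1151 ± 16.8 in SSM3, a log2 fold change of 2.11 (edgeR adjusted p = 4.11e-14, standard error 0.066).

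Gpx4 and Gpx8 went the other way. Gpx4 (ENSMUSG00000075706, chr10:80047166-80056439 of mm10, forward strand), the selenoprotein that reduces lipid hydroperoxides in membranes and guards against ferroptosis, had 1805, 1995 and 1832 counts in J110 against 817, 791 and 893 in SSM3. All SSM3 libraries were below all J110 libraries, at 375 ± 24.2 CPM in J110 against 176 ± 7.15 in SSM3, a log2 fold change of -1.09 (edgeR adjusted p = 9.97e-10, standard error 0.075), and the test against a 2-fold difference gave an edgeR adjusted p of 0.102. In the last 300 bases of its transcripts, 81.9% of 75-base stretches also occur in the processed copy Gpx4-ps2, which had at most 5 counts in any library. Gpx8 (ENSMUSG00000021760, chr13:113042753-113046410 of mm10, reverse strand), a membrane protein of the endoplasmic reticulum, had 253, 269 and 255 counts in J110 against 1, 2 and 0 in SSM3. Gpx8 was at the floor in SSM3, at a log2 fold change of -7.77 (edgeR adjusted p = 4.15e-13, standard error 0.29) and, J110 over SSM3, a ratio of the pooled levels of 245 (95% counting interval 83.5 to 1191). Without SSM3 replicate 2, which had 2 of its 3 SSM3 counts, the fitted value was -8.62. SSM3 levels of Gpx8 were 0.430%, 0.821% and 0% of the J110 mean in replicates 1, 2 and 3. Low counts on other genes of J110 stood at 0.397%, 0.480% and 0.078% in the same libraries. The part of such counts in the Gpx8 level was not tested. Gpx2 and Gpx6 had at most 2 counts in any library, and Gpx5 and Gpx7 had none.

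As a family, the 8 glutathione peroxidase genes summed to 695 ± 29.8 CPM in J110 and 2457 ± 106 CPM in SSM3, a ratio of 3.54. Within the family total, Gpx4 took 52.7% to 55.6% of the counts in J110 and 6.89% to 7.65% in SSM3. Gpx1 took 36.8% to 39.8% and 45.3% to 48.5%. Gpx3 took 0.029% to 0.467% of the counts in J110 and 43.9% to 47.8% in SSM3. By the reads as counted, the leading genes were Gpx4 and Gpx1 in J110 and Gpx1 and Gpx3 in SSM3. Gpx4 shares 81.9% of its 3′ end stretches with Gpx4-ps2, and how shared reads were counted is not given. The part of such reads in the Gpx4 share, the order and the family ratio was not tested.

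**Figure D3:**
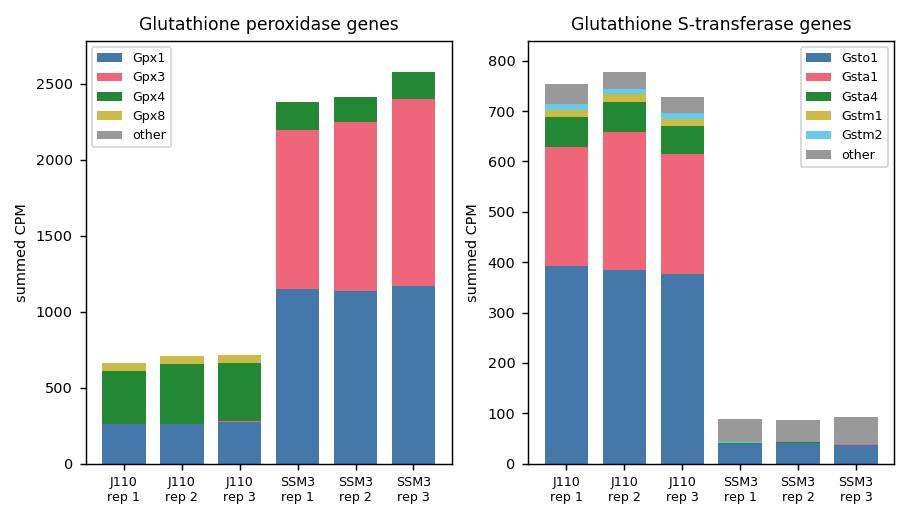
Summed CPM of the glutathione peroxidase genes (left) and the glutathione S-transferase genes (right) in each of the 6 libraries, stacked by gene, with bars starting at 0 and separate vertical scales. The peroxidase sum was 3.54 times as high in SSM3, with Gpx3 present there and nearly absent from J110. For the transferases, the sum was 8.47 times as high in J110. Both ratios hold for reads as counted, since Gpx4, Gsta1 and Gstp1 share much of their 3′ ends with copies.

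Superoxide dismutases and catalase differed in opposite directions. Sod1 (ENSMUSG00000022982, chr16:90220754-90226329 of mm10, forward strand), the cytosolic copper and zinc enzyme, had 2263, 2233 and 2262 counts in J110 against 2912, 3304 and 3397 in SSM3, a log2 fold change of 0.59 (edgeR adjusted p = 6.05e-07, standard error 0.067). Sod2 (ENSMUSG00000006818, chr17:13006846-13040063 of mm10, forward strand), the mitochondrial manganese enzyme, had 470, 413 and 415 counts in J110 against 615, 564 and 568 in SSM3, a log2 fold change of 0.51 (edgeR adjusted p = 7.91e-05, standard error 0.091). Both dismutases were higher in every SSM3 library, at 450.0 ± 19.3 CPM in J110 against 675 ± 26.6 in SSM3 for Sod1 and 86.3 ± 4.47 CPM in J110 against 123 ± 12.3 in SSM3 for Sod2. Sod3, the extracellular enzyme, had 1 count in each J110 library and none in SSM3. Cat (ENSMUSG00000027187, chr2:103453849-103485160 of mm10, reverse strand), catalase of the peroxisome, had 408, 399 and 485 counts in J110 against 3, 1 and 1 in SSM3. Catalase RNA was thus abundant in J110 alone, at 86.3 ± 12.9 CPM in J110 against 0.360 ± 0.267 in SSM3, a log2 fold change of -7.84 (edgeR adjusted p = 8.2e-14, standard error 0.26) and, J110 over SSM3, a ratio of the pooled levels of 244 (95% counting interval 104 to 754). Without SSM3 replicate 1, which had 3 of the 5 SSM3 counts, the value was -8.54. SSM3 levels were 0.774%, 0.246% and 0.231% of the J110 mean in replicates 1, 2 and 3, beside 0.397%, 0.480% and 0.078% for the low counts on other genes of J110 in the same libraries. The part of such counts in the Cat level was not tested.

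Hmox1 and Nqo1, commonly used readouts of NRF2 activity, differed in how far they were detected. Hmox1 (ENSMUSG00000005413, chr8:75093621-75100589 of mm10, forward strand), haem oxygenase, had 123, 143 and 92 counts in J110 against 69, 37 and 76 in SSM3. Hmox1 was lower in SSM3, with variable libraries that did not overlap, at 23.7 ± 4.54 CPM in J110 against 12.8 ± 4.27 in SSM3, a log2 fold change of -0.89 (edgeR adjusted p = 0.00118, standard error 0.21). Nqo1 (ENSMUSG00000003849, chr8:107388225-107403206 of mm10, reverse strand), the quinone reductase, had 0, 2 and 0 counts in J110 against 3, 0 and 2 in SSM3. Nqo1 was thus at or under 3 counts in every library of both lines, and no fold is given.

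The glutathione S-transferases, which join glutathione to electrophiles, gave a higher sum in J110. All 22 together summed to 753 ± 24.6 CPM in J110 and 88.9 ± 3.60 CPM in SSM3, 8.47 times as high in J110. That ratio holds for reads as counted. Of the 3′ end stretches, 69% in Gsta1 and 75.3% in Gstp1 also occur in copies. How shared reads were counted is not given, and their part in the ratio was not tested. Of the 22, 12 were tested, of which 7 were lower in SSM3 (beside 39.2% of all genes), 4 were higher (beside 38.6%) and 1 was not called. Gsto1 (ENSMUSG00000025068, chr19:47854970-47864790 of mm10, forward strand), an omega class enzyme with thioltransferase activity, had 2039, 1941 and 1807 counts in J110 against 174, 189 and 190 in SSM3. It was lower in all SSM3 libraries, at 385 ± 8.03 CPM in J110 against 38.9 ± 1.17 in SSM3, a log2 fold change of -3.31 (edgeR adjusted p = 1.8e-15, standard error 0.080), and it held 49.4% to 52.1% of the family's counts in J110 and 40.7% to 46.7% in SSM3. Gsto2 had 53, 22 and 29 counts in J110 against 11, 7 and 12 in SSM3, a log2 fold change of -1.70 (edgeR adjusted p = 0.000444, standard error 0.36), in the same direction.

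Alpha class genes were nearly confined to J110 among these 6 libraries. Gsta1 (ENSMUSG00000074183, chr9:78230656-78242684 of mm10, forward strand) had 1227, 1388 and 1137 counts in J110 against 3, 4 and 2 in SSM3. Its level was 249 ± 21.7 CPM in J110 against 0.638 ± 0.227 in SSM3, a log2 fold change of -8.57 (edgeR adjusted p = 3.84e-16, standard error 0.18) and, J110 over SSM3, a ratio of the pooled levels of 394 (95% counting interval 208 to 863). SSM3 levels of Gsta1 were 0.268%, 0.341% and 0.160% of the J110 mean in replicates 1, 2 and 3, near the shares of low counts given below. Gsta4 (ENSMUSG00000032348, chr9:78182774-78209349 of mm10, forward strand), which conjugates the lipid peroxidation product 4-hydroxynonenal, had 300, 305 and 271 counts in J110 against 7, 14 and 6 in SSM3, a log2 fold change of -4.92 (edgeR adjusted p = 1.3e-12, standard error 0.20). In SSM3 replicate 2 Gsta4 stood at 5.11% of the J110 mean, against 2.68% and 2.05% in replicates 1 and 3. For the low counts on other genes of J110, the shares were 0.397%, 0.480% and 0.078% in replicates 1, 2 and 3. The part of such counts in the Gsta1 and Gsta4 levels was not tested. Gsta2 had 36, 45 and 33 counts in J110 against 0, 0 and 0 in SSM3 and was at least 11.3-fold lower in SSM3 against the floor of 3 counts per library (edgeR adjusted p = 5.63e-08). Gsta3 had at most 5 counts in any library and was not tested. Near copies make single alpha genes uncertain, since 69.0% of the 75-base stretches at the 3′ end of Gsta1 also occur in Gsta2 or in Gm3776, a copy outside the naming rule with 52, 44 and 42 counts in J110 and none in SSM3. The total of the 4 alpha genes, which a split among them does not change, had 1568, 1741 and 1442 counts in J110 against 11, 18 and 8 in SSM3. The class total gave a log2 fold change of -6.91 (standard error 0.16, edgeR adjusted p = 1.12e-15).

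Mu class genes split between the lines. Gstm1 (ENSMUSG00000058135, chr3:108012255-108017973 of mm10, reverse strand) had 74, 72 and 62 counts in J110 against 3, 0 and 0 in SSM3, a log2 fold change of -5.87 (edgeR adjusted p = 7.27e-09, standard error 0.47) and, J110 over SSM3, a ratio of the pooled levels of 65.6 (95% counting interval 22.1 to 321). Gstm2 (ENSMUSG00000040562, chr3:107981702-107986453 of mm10, reverse strand) had 69, 60 and 58 counts in J110 against 2, 0 and 0 in SSM3, a log2 fold change of -6.23 (edgeR adjusted p = 4.79e-09, standard error 0.48) and, J110 over SSM3, a ratio of the pooled levels of 88.5 (95% counting interval 24.1 to 736). The few SSM3 counts of both genes came from SSM3 replicate 1 alone, without which the fitted values, -9.10 and -8.95, depend on the prior count. Gstm5 (ENSMUSG00000004032, chr3:107895821-107898686 of mm10, forward strand) had 30, 17 and 16 counts in J110 against 46, 36 and 62 in SSM3, a log2 fold change of 1.27 (edgeR adjusted p = 0.000478, standard error 0.27), and Gstm4 had 0, 3 and 0 counts in J110 against 9, 11 and 12 in SSM3, a log2 fold change of 3.34 (edgeR adjusted p = 0.000275, standard error 0.68). Both were higher in SSM3, and the J110 counts of Gstm4 came from replicate 2, without which its fitted value, 6.46, depends on the prior count. Gstm4 fell under the count filter with the ribosomal RNA locus left out and with counts thinned to the smallest library, and was not tested there. Gstm5 shares exons with 4933431E20Rik on the opposite strand, which had 2, 4 and 5 counts in J110 and 11, 11 and 14 in SSM3, in the same direction. Gstm3 had at most 2 counts in any library, and Gstm6 and Gstm7 had none. The total of the 7 mu genes was lower in SSM3, and its fitted difference was -1.26 (edgeR adjusted p = 1.59e-06, standard error 0.16).

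The remaining classes were low. Gstt3 (ENSMUSG00000001665, chr10:75774115-75781414 of mm10, reverse strand), a theta class gene, had 2, 3 and 3 counts in J110 against 39, 55 and 58 in SSM3. Its SSM3 libraries were the higher, at a log2 fold change of 4.26 (edgeR adjusted p = 1e-08, standard error 0.35). Gstt3 shares exon sequence with Gm20441 on the same strand, which had 8, 5 and 6 counts in J110 and 32, 19 and 21 in SSM3, in the same direction. The total of the 4 theta genes gave 4.29 (standard error 0.32, edgeR adjusted p = 3.43e-09). Gstt2 had 1, 0 and 0 counts in J110 against 6, 9 and 5 in SSM3 and was not tested. Gstz1 (ENSMUSG00000021033, chr12:87147165-87164723 of mm10, forward strand), a zeta class enzyme of tyrosine breakdown, had 56, 58 and 60 counts in J110 against 73, 72 and 104 in SSM3, a log2 fold change of 0.59 (edgeR adjusted p = 0.00506, standard error 0.17). Gstp1, which is abundant in many epithelia, had 18, 14 and 12 counts in J110 against 16, 7 and 16 in SSM3 and a log2 fold change of -0.092 (edgeR adjusted p = 0.818, standard error 0.35). Its libraries overlapped, and Gstp1, Gstp2 and the pseudogene Gstp-ps share most of their 3′ ends. The total of the 3 pi genes was also fitted, at -0.12 (edgeR adjusted p = 0.752, standard error 0.35). That total cannot settle the shared ends, because it is nearly the counts of Gstp1 again and leaves out Gstp-ps. The pseudogene had 19, 18 and 10 counts in J110 and 20, 17 and 11 in SSM3. Gstk1, Gstp3 and Gstt1 had at most 2 counts in any library, and Gstp2 and Gstt4 had none.

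Added over all 56 genes, the level was 6476 ± 123 CPM in J110 and 7943 ± 146 CPM in SSM3, a ratio of 1.23. The ratio was 1.05 without Gpx3 and 1.37 without the glutathione S-transferase genes. Txn1 and Prdx1 took 16.7% to 17.5% and 13.6% to 14.5% of the counts of the 56 genes in J110, and 7.71% to 9.99% and 15.0% to 15.9% in SSM3. Gpx3 alone took 13.1% to 15.3% of them in SSM3. The replicates were close, with a median coefficient of variation over the 35 genes above 10 CPM of 5.50% in J110 and 9.23% in SSM3.

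**Figure D4:**
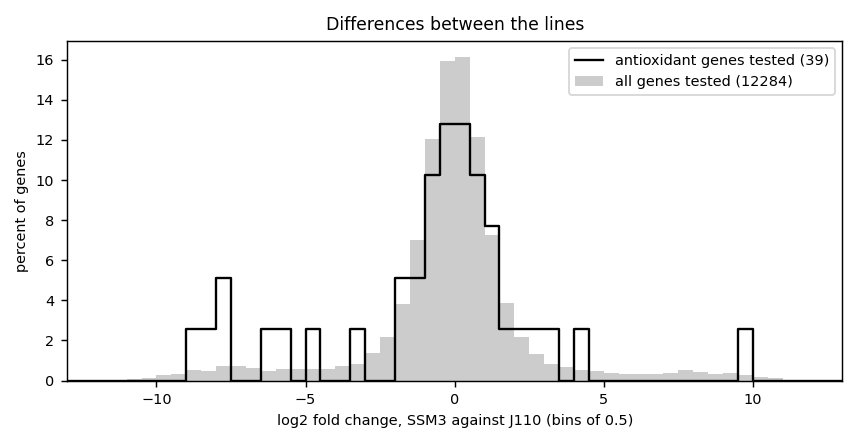
Distribution of log2 fold changes, SSM3 against J110, in bins of 0.5, as percent of all 12284 genes tested (grey bars) and percent of the 39 antioxidant genes tested (black line). Both are centred near 0, with medians of -0.014 and -0.061, and the antioxidant genes are drawn without a test of their distribution.

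A further 63 genes of the same pathway were listed by role, of which 59 were tested and 49 were called (beside 77.9% of all genes), 17 higher in SSM3 (beside 38.6%) and 32 lower (beside 39.2%). Their median log2 fold change was -0.50, and 20 of the 59 were called beyond 2-fold, beside 34.8% of all genes. These lists were also chosen with earlier results of these data known. The genes named are the 2 of each list with the largest called difference among those with at least 10 CPM in one line. Among partners and turnover factors of NRF2, 3 of 9 tested were higher and 5 lower, beside the same shares. Sqstm1, the autophagy receptor that binds KEAP1, had a log2 fold change of -1.07 (edgeR adjusted p = 6.08e-10), and Maff, a small MAF partner, one of 0.90 (edgeR adjusted p = 2.08e-06). The detoxification list had 10 of 11 tested genes lower in SSM3 (beside 39.2% of all genes) and none higher (beside 38.6%). Within it Aldh3a1, an aldehyde dehydrogenase, had 60, 67 and 91 counts in J110 against 0, 0 and 0 in SSM3 and was at least 21.9-fold lower in SSM3. Ephx1, an epoxide hydrolase, had 223, 204 and 224 counts in J110 against 5, 3 and 3 in SSM3. Both genes were thus at or near the floor in SSM3 and well detected in J110.

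Transport, breakdown and membrane enzymes of glutathione gave large differences of either sign. Of the 9 tested in the supply, export and breakdown list, 6 were lower in SSM3 (beside 39.2% of all genes) and 3 higher (beside 38.6%). Ggt1, the surface enzyme that begins glutathione breakdown, had 3, 2 and 3 counts in J110 against 372, 461 and 485 in SSM3, with SSM3 over J110 a ratio of the pooled levels of 174 (95% counting interval 88.1 to 404). Abcc4, an export pump, had 259, 274 and 235 counts in J110 against 2, 0 and 1 in SSM3, with J110 over SSM3 a ratio of the pooled levels of 242 (95% counting interval 82.6 to 1177). Slc7a11, the cystine carrier of system xc-, falls outside the naming rule and was chosen after its values were seen. It had 160, 184 and 140 counts in J110 against 2, 2 and 0 in SSM3, at the floor in SSM3. Mgst2, a membrane glutathione transferase, had 363, 359 and 336 counts in J110 against 0, 1 and 1 in SSM3, and Mgst3 had a log2 fold change of -1.37 (edgeR adjusted p = 0.000106). Mgst1, the third gene of that list, was called higher.

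The NADPH, thioredoxin, iron and selenoprotein lists followed, each to be read beside the 38.6% of all genes called higher and 39.2% called lower. Me1, the NADPH-producing malic enzyme, had a log2 fold change of 2.34 (edgeR adjusted p = 2.94e-14), and Pgls, the lactonase between the G6pdx and Pgd steps, one of 1.11 (edgeR adjusted p = 3e-09). These were the 2 of the 5 genes in that list called higher in SSM3, and 2 others were called lower. Sesn2, a stress-induced sestrin, gave -2.06 (edgeR adjusted p = 2.02e-08) and Txn2, mitochondrial thioredoxin, 1.22 (edgeR adjusted p = 9.77e-10), while Txn1 above was lower. Of the 4 haem and iron genes tested, 2 were higher in SSM3 and 2 lower. The ferritin subunits Ftl1, at -0.89 (edgeR adjusted p = 4.55e-07), and Fth1, at -0.80 (edgeR adjusted p = 1.27e-08), were the lower ones. For the genes that build selenoproteins, to which Gpx1, Gpx3, Gpx4 and Txnrd1 belong as products, 2 of 7 tested were higher and 3 lower, with Sepsecs at -1.20 (edgeR adjusted p = 0.00011) and Eefsec at 0.68 (edgeR adjusted p = 0.00163). Those 4 selenoprotein genes themselves were 2 higher and 2 lower.

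**Figure D5:**
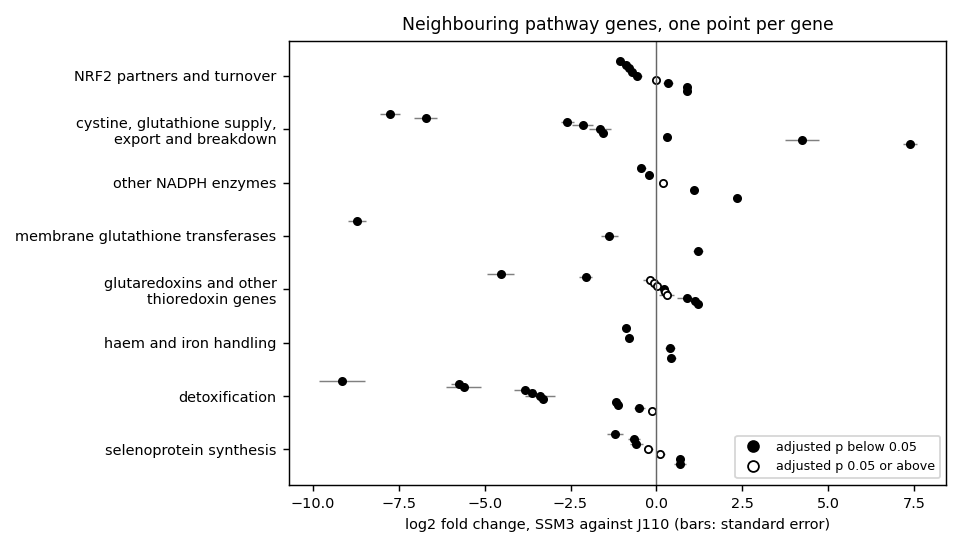
Fitted log2 fold change of SSM3 against J110 for the 59 further pathway genes tested, 1 point per gene with its standard error, in 8 lists. Filled points were called (49 genes) and open points were not, and the detoxification list has 10 of 11 points called lower and none called higher. The point of Aldh3a1, which had no SSM3 count, depends on the prior count of the fit.

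By the annotation, 10 of the 56 genes share exon sequence with another gene, namely Gss, G6pdx, Gstm5, Gclm, Gstt3, Prdx2, Tkt, Keap1, Gstz1 and Prdx5. Without these 10, 24 of 29 genes tested were called, beside 77.9% of all genes. In 8 of the 56, at least 10% of the 75-base stretches at the 3′ end also occur in another gene.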

How the data were processed

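RNA from J110 and SSM3 cells (3 libraries each, n = 3 biological replicates per the study's methods) was sequenced as 75-base single reads from 3′ tag libraries. The authors trimmed the reads with cutadapt 2.1, mapped them to mm10 with HISAT2 2.0.4 and deposited raw gene counts from featureCounts of Subread 2.0.0, per the submitters' processing notes. Strand setting and the handling of reads over several genes are not given in the sources used here. Symbols came from GENCODE for GRCm38, which matched 52489 of 52636 gene identifiers (99.7%).

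After filterByExpr and TMM scaling, counts were fitted with the quasi-likelihood test of edgeR 4.0.16 (R 4.3.3) on group alone over all 6 libraries, and near-identical classes were also fitted as totals. The biological coefficient of variation was 8.30%. Alternatives used DESeq2 1.42.0, limma 3.58.1 (voom), other scalings, filters, depths and left-out libraries. Without TMM, on library size alone, every log2 fold change moves up together, the median over all genes from -0.014 to 0.16. No library copied another, as the chi-square between replicates was 2.29 to 6.01 per degree of freedom. The genes and lists were chosen with earlier results of these data known. Genes with a mean of at least 10 CPM in one line are described singly, others by range, and in the further lists the 2 with the largest difference are named. A check of 1 further gene is not reported here.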

Additional observations from a re-analysis of the deposited data

How the results depend on the processing

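Of 56 genes, 32 were called with DESeq2, with limma-voom and with RLE or upper quartile scaling too. With library size only 35 were called, and 34 with the filter of at least 1 count. With the ribosomal RNA locus left out 31 were called, as Gstm4 was then not tested. A filter of at least 10 counts in every library left 21 called, 9 of them lower in SSM3, since it removes genes with few counts in a line. The test against a 2-fold difference called 19, with 8 higher and 11 lower, 20 of the further pathway genes and 4272 of all genes, and did not call the PRDX6 total (-0.36). Leaving out single libraries gave 32 to 34 called. J110 and SSM3 share replicate numbers, and same-numbered libraries deviated together with correlations of only 0.012, 0.015 and 0.027. Every library did correlate best with its own number, a hint from the data. Whether the numbers pair the libraries is not given in the sources used here, and the main fit used group alone. With a replicate block 32 genes were called, 15 higher and 17 lower. Differences near 0 changed sign. The pi class total was 0.048 with library size only, 0.065 with counts thinned to the smallest library, -0.33 to 0.18 without single libraries and 0.11 without J110 replicate 3 and SSM3 replicate 2, an alternative added after the data were seen. Gstp1 gave 0.081, 0.11, -0.30 to 0.21 and 0.11 under the same settings. Pgd was 0.12 with library size only, -0.13 to 0.013 without single libraries and 0.057 without both libraries, and Prdx4 was 0.12 with library size only. Taldo1 was -0.0012 with DESeq2, -0.0013 with RLE, -0.029 with upper quartile, -0.015 with at least 10 counts, -0.019 when thinned and -0.029 to 0.020 without single libraries. None of these passed the threshold, and the cause was not tested. At these depths, genes under the floor of 3 counts were not detectable, and genes that share exons are uncertain because the strand setting is not given.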
